A study of Canis lupus familiaris with 39 samples.

Results

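Simple epithelium keratins and the genes that work beside them were followed across 10 normal organs of the dog. The set was chosen by name and holds 10 genes: KRT7, KRT8, KRT18, KRT19, KRT20, EPCAM, VIL1, ELF3, ESRP1 and GRHL2. A probeset, a group of short probes whose brightness is summed to 1 value, was counted for a gene when the array annotation gave that symbol and no other. This gave 17 of the 42860 probesets and 9 of the 10 genes, out of 15115 genes measured in this way. KRT19 had no probeset of its own and is not analysed here. EPCAM and GRHL2 had 3 probesets, KRT7, KRT18, VIL1 and ESRP1 had 2, and KRT8, KRT20 and ELF3 had 1. Where a gene had several, the one with the highest average across the arrays was read first and is called probeset 1.

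RNA was taken from pathologically normal jejunum, kidney, liver, lung and pancreas, which are built largely of epithelium, and from brain (cerebrum), heart, lymph node, skeletal muscle and spleen. Affymetrix Canine Version 2.0 arrays carried 4 samples of each organ and 3 of pancreas, 39 in all, from 4 dogs. The dogs were beagles or of mixed breed, males and females, and differed in age. The labels do not say which arrays share a dog, so p-values measure only the spread between these samples. Whole organs were used, and fewer cells of a type and less RNA per cell cannot be told apart in them.

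Keratins are the intermediate filaments of epithelial cells and always assemble from a type I and a type II chain. KRT8 and KRT18 form the basic pair of single-layered epithelia, KRT7 and KRT19 are added in ducts and lining epithelia, and KRT20 in the mature lining of the gut. EPCAM is an adhesion protein of the lateral membrane, and VIL1 (villin) bundles actin in the microvilli of absorptive cells. ELF3 and GRHL2 are epithelial transcription factors, and ESRP1 directs the splicing of epithelial transcripts. In the dog assembly UU_Cfam_GSD_1.0, KRT8 and KRT18 lie next to each other with 0 protein-coding genes between them, while 27 lie between KRT7 and KRT8.

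All values are log2 RMA values, where a difference of 1 is a doubling. The median of all probesets lay between 3.95 and 4.11 on every array, so a value near 4 is the level of most probesets. Differences between organs were tested with limma across all 42860 probesets and called at a Benjamini-Hochberg adjusted p (false discovery rate) of 0.001.

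Several arrays carried markers of an organ other than the labelled one. The 8 measured acinar cell genes of the pancreas averaged 6.67, 3.87, 7.52 and 8.73 on the 4 skeletal muscle arrays, against 12.43 to 12.68 on the pancreas arrays. PNLIP, the pancreatic lipase, was 7.95, 4.01, 9.25 and 11.08 on those skeletal muscle arrays. The same list averaged 5.67 on lymph node array 4 and on brain array 3, against at most 3.96 on the other arrays of these organs. The 9 measured hepatocyte genes averaged 7.24, 4.36, 7.34 and 4.48 on the lung arrays and 7.32 on heart array 2, against 11.72 to 12.21 on the liver arrays. ALB (albumin) was 11.04, 3.76, 11.09 and 3.55 in lung. The defining genes of each organ were nevertheless high where labelled, such as SFTPC in lung at 13.62 to 14.22 and INS in pancreas at 9.98 to 10.37. Results were therefore also computed without 8 arrays: skeletal muscle 1, 3 and 4, lung 1 and 3, lymph node 4, brain 3 and heart 2. Smaller shifts were left in, such as hepatocyte genes at 5.65 on heart array 1 and 5.61 on jejunum array 2.

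The 5 epithelial organs were set against the other 5 to ask how far these genes follow the epithelial content of an organ. Of the 9 genes, 8 were higher in the epithelial organs and none was lower, where 12.0% of all genes were called higher and 12.8% lower. GRHL2 was the exception. The median difference of the 9 genes was 1.3, against -0.0128 over all genes. Of the 17 probesets, 15 were higher, against 9.81% of all probesets. Without the 8 arrays the count of genes stayed at 8.

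**Figure D1:**
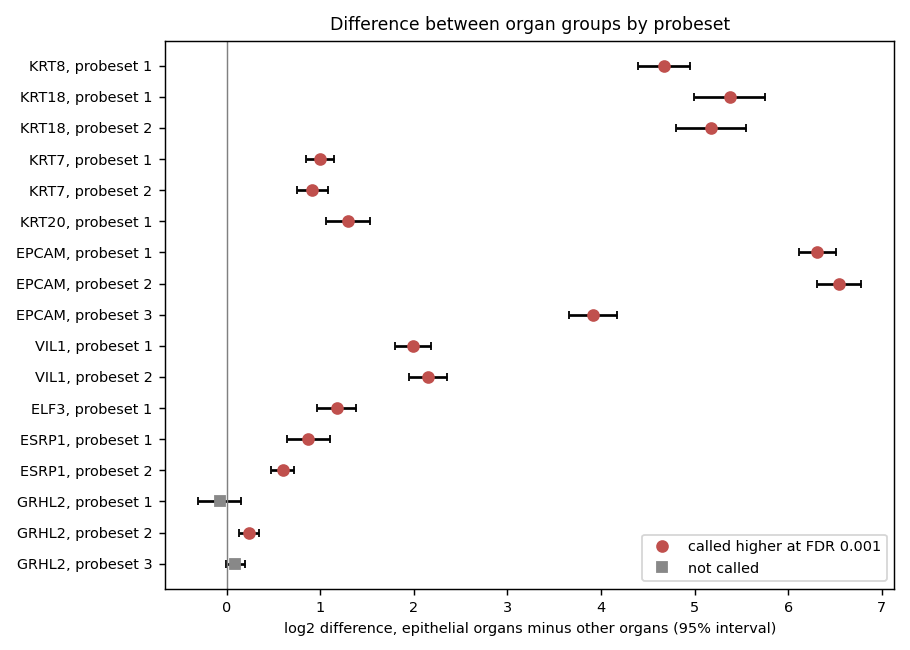
Difference between the mean of the 5 epithelial organs and the mean of the other 5 (x axis, log2) for each of the 17 probesets, with limma's 95% interval of the difference. EPCAM lies farthest right at 6.31 and 6.55 for its first 2 probesets, and KRT8 and both KRT18 probesets follow between 4.67 and 5.37. EPCAM probeset 3 lies below these at 3.91, and 2 of the 3 GRHL2 probesets were not called.

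KRT8, KRT18 and EPCAM were broadly epithelial. For these 3 genes every array of an epithelial organ lay above every array of the other organs, which held for 0.146% of all genes. All 6 of their probesets did so, against 0.0910% of all probesets. The other 6 genes overlapped between the organ groups.

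KRT8, the type II chain of the basic pair, was 10.65, 11.69, 10.20 and 11.97 on the jejunum arrays and 8.95, 10.49 and 10.16 in pancreas. It was 9.78, 9.53, 9.27 and 10.30 in liver, 9.11, 9.64, 9.04 and 9.59 in lung, and 6.37, 6.89, 7.35 and 7.0 in kidney. Over the arrays of brain, heart, lymph node, skeletal muscle and spleen it ran from 4.34 to 5.65. Kidney thus stood between the remaining epithelial organs and the others, overlapping neither. The epithelial organs averaged 9.39 and the others 4.72, a 25.5-fold difference (4.67 on the log2 scale, SE 0.136, adjusted p = 1.56e-23). In the order of organ means, jejunum and pancreas did not differ at the threshold (difference 1.26, SE 0.322, adjusted p = 0.00241), nor did pancreas and liver or liver and lung. Lung exceeded kidney by 2.44 (adjusted p = 8.48e-08), and kidney exceeded spleen by 1.84 (adjusted p = 1.07e-05).

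KRT18, the type I partner of KRT8, gave 11.26, 11.77, 11.29 and 11.93 in jejunum, 11.16, 10.36, 10.93 and 11.61 in liver, and 11.13, 10.27, 11.13 and 11.38 in lung. Pancreas was at 10.09, 10.76 and 10.84, and kidney at 8.46, 8.41, 8.95 and 8.99. Liver and lung overlapped both jejunum and pancreas, jejunum lay above pancreas, and all kidney arrays lay below these 4 organs. The epithelial organs averaged 10.56 and the others 5.19, a 41.4-fold difference (5.37, SE 0.186, adjusted p = 1.52e-21). Probeset 2 of KRT18 gave 5.18 (SE 0.184, adjusted p = 3.05e-21), and the organ means of the pair correlated at r = 1.0 over 10 organs.

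KRT18 was higher in the lymphoid organs than in brain and heart. It was 6.0, 5.83, 7.05 and 6.62 in lymph node and 6.18, 6.71, 5.83 and 7.15 in spleen. It was 3.83, 3.78, 3.89 and 4.0 in brain and 4.23, 4.18, 4.57 and 4.41 in heart. Every lymphoid array was above every brain and heart array. KRT18 was lower in brain than in lymph node, with a difference of -2.5 (SE 0.409, adjusted p = 7.78e-06), and lower in brain than in spleen (-2.59, adjusted p = 5.31e-06). It was also lower in heart than in lymph node (-2.03, adjusted p = 0.00017) and in heart than in spleen (-2.12, adjusted p = 0.000123). Without the 8 arrays these 4 pairs kept their calls, with adjusted p between 1.24e-06 and 0.000196. KRT8 gave no call in the same 4 pairs, with differences from -0.58 to 0.01 (SE 0.298) and adjusted p from 0.168 to 0.989. KRT8 was 4.64, 4.63, 4.45 and 4.61 in lymph node, overlapping brain and heart. In spleen it was 4.84, 4.80, 4.95 and 5.65, above every brain and heart array (at most 4.66). A pair of probesets annotated to KRT8 together with other genes averaged 4.45 and 4.42 in spleen, against 3.60 and 3.83 in brain and 3.26 and 3.45 in heart. KRT18 probeset 2 also lay higher in lymph node, at 5.24 ± 0.70, and in spleen, at 5.01 ± 0.94, than in brain, at 3.26 ± 0.13, and heart, at 3.27 ± 0.14 (SD, n = 4 each). Whether the 2 keratins differ from each other in this was not tested.

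Skeletal muscle held 1 array apart from the rest for KRT18 probeset 1, with 6.95 on array 1 against 4.16, 4.11 and 4.32 on the other 3. Probeset 2 was 4.54, 3.73, 3.88 and 3.21, with array 1 the highest but much nearer to the rest. KRT8 on the same arrays was 4.92, 4.64, 4.92 and 5.04, and EPCAM was 3.83, 3.43, 3.51 and 3.5. The acinar genes stood at 6.67 on this array and were higher on arrays 3 and 4, where KRT18 was 4.11 and 4.32. The macrophage list averaged 6.27 on array 1, against 4.58 to 4.84 on the other skeletal muscle arrays, and its part in the KRT18 value was not tested. KRT18 in lymph node against skeletal muscle did not pass the threshold with all arrays (1.49, adjusted p = 0.00439) or without the 8 arrays (2.13, adjusted p = 0.00341). The second fit holds only array 2 of skeletal muscle, which is assumed to vary as the other organs do.

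**Figure D2:**
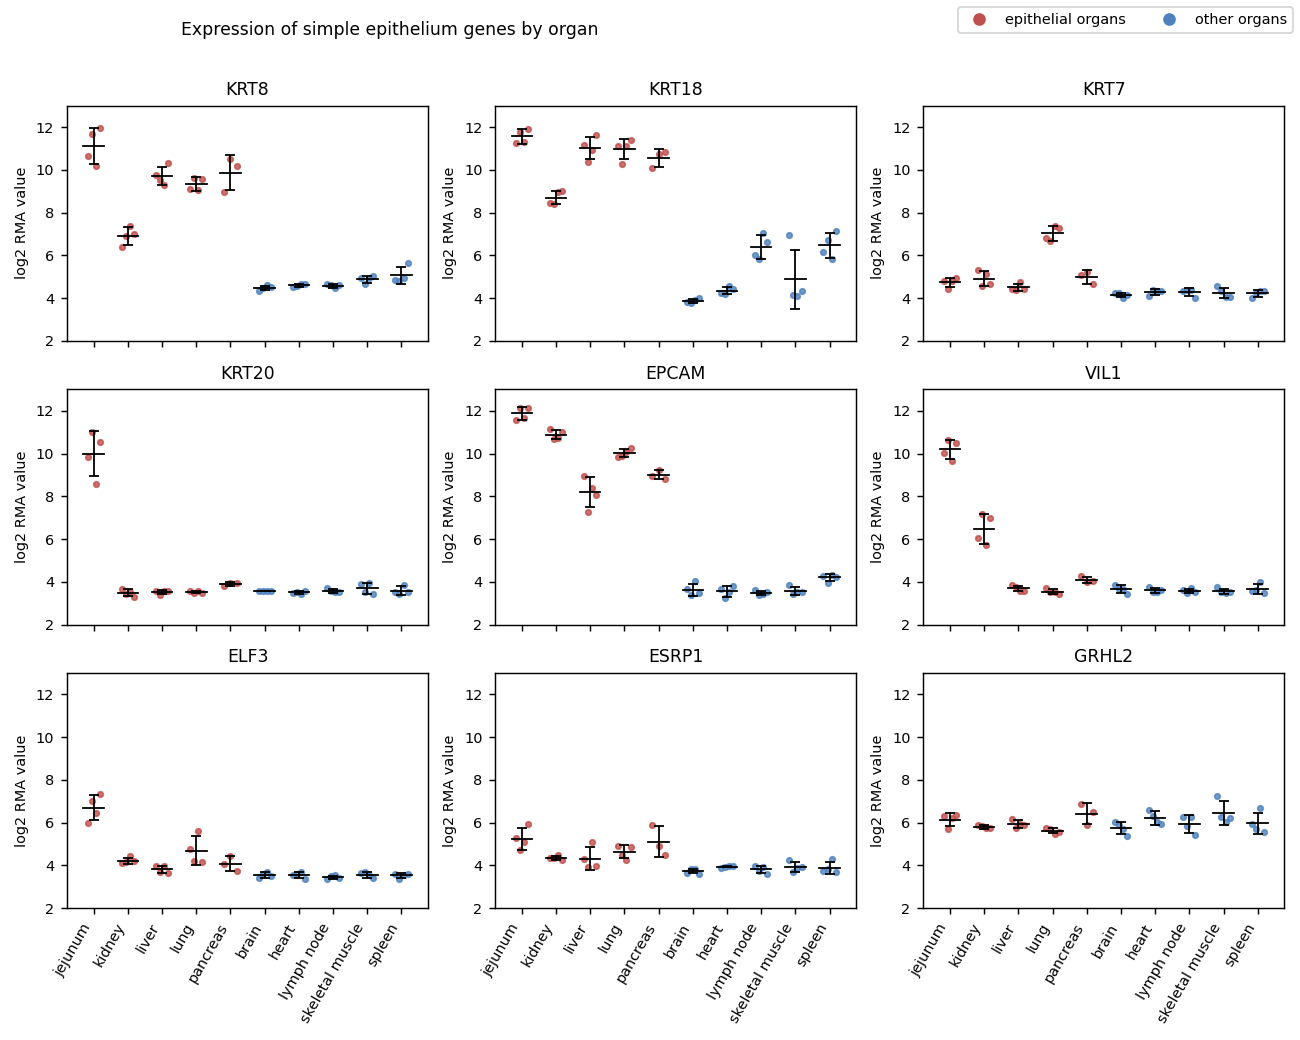
Log2 RMA value (y axis) of each array (points) for probeset 1 of the 9 genes in the 10 organs, with the mean and SD of each organ in black. Epithelial organs stand to the left in red and the other organs to the right in blue. KRT8, KRT18 and EPCAM are separated between the groups, KRT20 is high in jejunum alone, VIL1 in jejunum and kidney, KRT7 in lung, and GRHL2 is flat.

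EPCAM, read by probeset 1, had the widest difference of the 9 genes between epithelial and other organs. It was 11.56, 12.12, 11.68 and 12.14 in jejunum, 11.13, 10.66, 10.74 and 11.02 in kidney, and 9.84, 9.88, 10.08 and 10.26 in lung. Pancreas stood at 8.97, 9.25 and 8.83 and liver at 8.97, 7.28, 8.39 and 8.08. The arrays of jejunum, kidney and lung overlapped neither each other nor the remaining organs, while those of pancreas and liver overlapped. The lowest liver array was well above the highest array of brain, heart, lymph node, skeletal muscle and spleen, 4.33 in spleen. The epithelial organs averaged 10.00 and the others 3.69, a 79.3-fold difference (6.31, SE 0.0969, adjusted p = 2.06e-30). Probeset 2 gave 6.55 (adjusted p = 2.53e-29), and probeset 3 gave 3.91, a 15.1-fold difference (adjusted p = 1.43e-22). In probeset 1, jejunum exceeded kidney by 0.99 (SE 0.213, adjusted p = 0.000682) and lung exceeded pancreas by 0.998 (SE 0.23, adjusted p = 0.000651). The means of lung and pancreas were nearer in probeset 2, at 9.95 and 9.63, and in probeset 3, at 7.35 and 6.75. Kidney against lung (0.87, adjusted p = 0.00228) and pancreas against liver (0.84, adjusted p = 0.00474) were not called. Among the other organs spleen had the highest mean, 4.20 ± 0.17, against 3.63 ± 0.28 in brain (SD, n = 4 each), which was not called (adjusted p = 0.0434).

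Kidney and liver took opposite places for EPCAM and for the keratin pair. EPCAM was higher in kidney than in liver by 2.71 (6.53-fold, SE 0.213, adjusted p = 4.92e-12). KRT8 was lower in kidney than in liver, with a difference of -2.82 (SE 0.298, adjusted p = 4.67e-09), and so was KRT18, with -2.31 (SE 0.409, adjusted p = 5.14e-05). The kidney and liver arrays did not overlap for any of the 3 genes. The hepatocyte list averaged 5.02, 5.59, 5.77 and 4.75 on the kidney arrays, and the acinar list 4.12, 3.89, 4.60 and 5.09 on the liver arrays, and their part in these differences was not tested. No kidney or liver array was among the 8 left out, and the calls held in that fit too (adjusted p = 1.12e-09 for EPCAM, 4.74e-07 for KRT8 and 3.34e-06 for KRT18). VIL1 was also higher in kidney than in liver, by 2.80 (adjusted p = 7.93e-13). For either direction, 10.4% of all genes were called between these organs. KRT18 against KRT8 and EPCAM against KRT8 are shown by array in a pair of scatter plots.

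**Figure D3:**
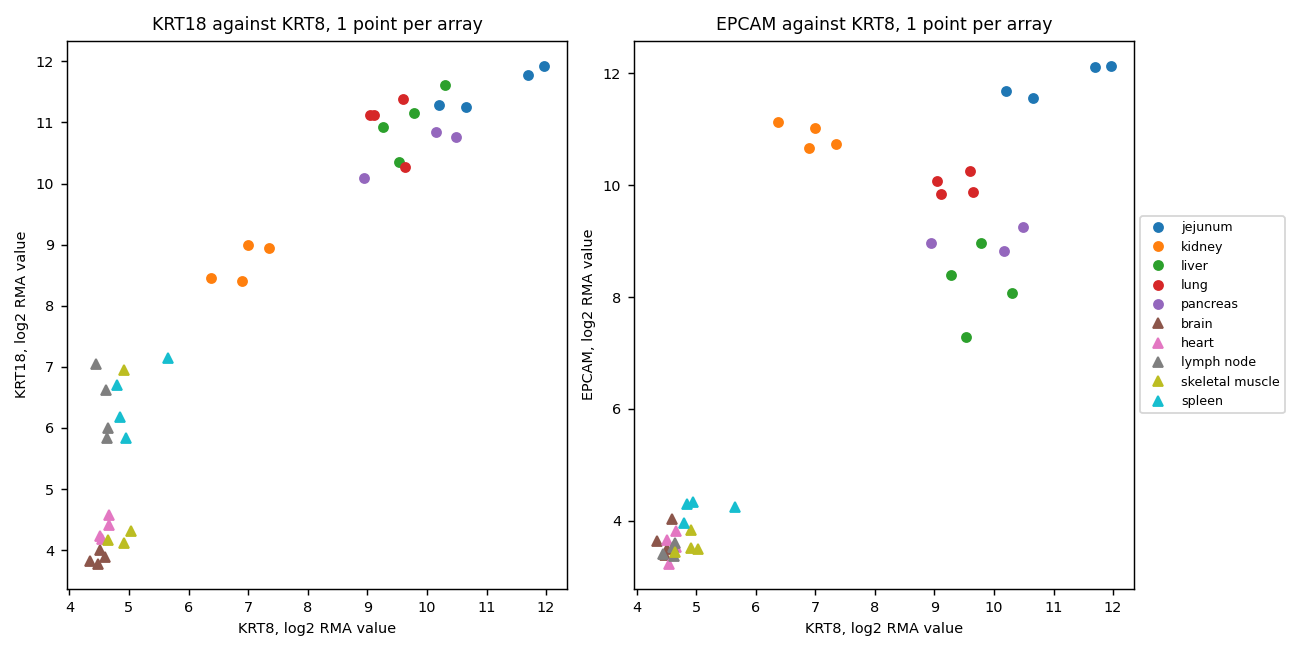
Each point is 1 array, with the log2 RMA value of KRT8 on the x axis and of KRT18 (left panel) or EPCAM (right panel) on the y axis. Circles are epithelial organs and triangles other organs. The kidney arrays sit apart in the right panel, with EPCAM of 10.66 to 11.13 at KRT8 of 6.37 to 7.35, and the lymph node and spleen arrays sit above brain and heart in the left panel.

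KRT20, the keratin of mature gut lining cells, was high in 1 organ. Its values were 9.84, 11.01, 8.58 and 10.55 in jejunum. On all other arrays it lay between 3.31 and 3.96, the level of most probesets. Jejunum exceeded the mean of the other 9 organs 84.2-fold (6.396 on the log2 scale, SE 0.187, adjusted p = 2.36e-23). The difference between the epithelial and the other organs (1.30, 2.46-fold, adjusted p = 3.52e-11) was carried by jejunum and was 0.02 (adjusted p = 0.802) without it.

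VIL1 was high in the 2 organs with a brush border. It was 10.04, 10.62, 9.66 and 10.47 in jejunum and 6.07, 7.17, 5.71 and 6.99 in kidney, with no overlap between them. Pancreas was at 4.25, 3.97 and 4.05, and the 7 other organs had means from 3.54 to 3.69. Jejunum stood 74.3-fold above the mean of the other 9 organs (6.22, SE 0.153, adjusted p = 2.16e-25) and kidney 4.25-fold (2.09, SE 0.153, adjusted p = 8.4e-13). Jejunum exceeded kidney by 3.71 (adjusted p = 7.15e-16) and kidney exceeded pancreas by 2.40 (adjusted p = 2.21e-10). Kidney arrays 2 and 4 were the higher ones in both VIL1 probesets, at 7.16 and 7.18 against 5.91 and 5.51 in probeset 2.

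KRT7 was a lung gene in this series. Its lung values were 6.80, 6.68, 7.36 and 7.30, and the highest value on any array of another organ was 5.32, in kidney. Lung exceeded the mean of the other 9 organs 5.89-fold (2.56, SE 0.123, adjusted p = 5.15e-17), and probeset 2 gave 3.12 (SE 0.132, adjusted p = 1.94e-18). Pancreas followed at 5.10, 5.22 and 4.64 and kidney at 5.32, 4.56, 5.11 and 4.66, and these 2 organs did not differ at the threshold (0.07, SE 0.177, adjusted p = 0.764). Lung arrays 1 and 3, which held hepatocyte genes, stood at 6.80 and 7.36, and liver itself was at 4.40 to 4.74. Without the 8 arrays the lung difference was 2.49.

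ELF3, an ETS family factor, was 5.99, 7.01, 6.47 and 7.35 in jejunum and 4.77, 4.22, 5.62 and 4.18 in lung. All jejunum arrays lay above all others. Jejunum was 7.37-fold above the mean of the other 9 organs (2.88, SE 0.167, adjusted p = 3.11e-15) and exceeded lung by 2.01 (adjusted p = 1.84e-08). Lung against kidney, the next pair, was not called (0.48, SE 0.224, adjusted p = 0.154). The higher lung values were on arrays 1 and 3, which held hepatocyte genes. Lung arrays 2 and 4, at 4.22 and 4.18, lay within the kidney range of 4.10 to 4.43. The 6 measured airway epithelium genes averaged 7.15, 5.43, 7.11 and 6.17 on lung arrays 1 to 4, and their part in the ELF3 values was not tested.

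ESRP1 changed little. It was 5.27, 4.71, 5.10 and 5.94 in jejunum, 5.90, 4.91 and 4.49 in pancreas, and 4.92, 4.50, 4.27 and 4.86 in lung. These organs overlapped, and no pair of epithelial organs was called. The difference between the epithelial and the other organs was 1.83-fold (0.87, SE 0.11, adjusted p = 7.77e-08), and jejunum exceeded the mean of the other 9 by 1.06 (adjusted p = 2.82e-05). The jejunum call was lost without jejunum array 4 (0.83, adjusted p = 0.0016). Pancreas exceeded the other 9 by 0.89 (adjusted p = 0.000663), which was lost without the 8 arrays (0.90, adjusted p = 0.00209). Probeset 2 gave 5.36, 4.94, 5.79 and 5.15 in jejunum, above every other array, and a difference of 1.75 (SE 0.0993, adjusted p = 1.81e-15).

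GRHL2, a factor of the grainyhead family, was flat in probeset 1. Its organ means ran from 5.62 in lung to 6.44 in skeletal muscle, with an adjusted p of 0.0396 in limma's F test over the 10 organs. The epithelial minus other difference was -0.08, with a 95% interval from -0.303 to 0.149. Probesets 2 and 3 had organ means from 3.599 to 4.35 and from 3.21 to 3.63, and both were highest in pancreas. Pancreas was also the highest organ for 9 of the 15 other keratins described below, but that list averaged only 4.29 there, near the level of most probesets. The share of all genes that were highest in pancreas was not computed. GRHL2 probeset 2 was 4.52, 3.92 and 4.61 in pancreas and exceeded the other 9 organs by 0.55 (SE 0.0969, adjusted p = 2.65e-05). Its epithelial call (0.24, adjusted p = 0.000361) was lost without the 8 arrays (0.24, adjusted p = 0.00826). The probesets of GRHL2 correlated at r = 0.55 to 0.70 over the 10 organ means, against 0.96 to 1.0 for those of EPCAM.

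Over the 10 organs, limma's F test called 15 of the 17 probesets (background 54.6% of all probesets) and 8 of the 9 genes (60.9% of all genes). Against the mean of the other 9 organs, jejunum had 7 of 9 genes higher (background 8.15%), pancreas 4 (11.9%), lung 4 (8.59%), liver 3 (7.81%) and kidney 2 (8.92%). The jejunum genes were all but KRT7 and GRHL2. None was higher in brain, heart, lymph node, skeletal muscle or spleen, where 12.3%, 8.24%, 12.4%, 7.77% and 6.94% of all genes were higher. Lower calls numbered 5 in brain (background 9.77%), 5 in lymph node (8.20%), 5 in skeletal muscle (10.1%), 5 in spleen (5.76%) and 4 in heart (8.38%). Among the epithelial organs they were 1 each: KRT20 in kidney (4.78%), and VIL1 in liver (7.09%) and in lung (5.06%). For both genes the mean of the other 9 includes the high jejunum. KRT20 was at 3.49 in kidney and 3.51 in heart, and VIL1 at 3.69 in liver, 3.54 in lung and 3.66 in brain. Every jejunum array lay above every array of the other organs for 4 genes, KRT20, EPCAM, VIL1 and ELF3 (1.60% of all genes), and every lung array for 1, KRT7 (1.30%). Of the 81 pairs of organs that stand next to each other in the order of a gene, 11 differed at the threshold (2.58% over all genes).

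The 4 jejunum arrays differed among themselves in one direction for many of these genes. Arrays 2 and 4 were both above arrays 1 and 3 for 6 of the 9 genes, KRT8, KRT18, KRT20, EPCAM, VIL1 and ELF3, an order shown by 20.1% of all genes. The mean of arrays 2 and 4 exceeded that of arrays 1 and 3 by 1.57 for KRT20, 1.40 for KRT8, 0.95 for ELF3, 0.69 for VIL1, 0.58 for KRT18 and 0.51 for EPCAM. Probesets of a gene did not share this to the same degree: EPCAM probeset 3 gave 9.02, 10.99, 9.40 and 10.48, while probeset 2 gave 11.61, 11.66, 11.72 and 11.80. The enterocyte list averaged 8.65, 8.77, 8.67 and 8.90 on arrays 1 to 4, the villin partners 7.32, 7.98, 7.0 and 7.84, and the list of goblet, Paneth and enteroendocrine cells 8.09, 9.04, 7.97 and 8.63. All 3 lists were thus higher on arrays 2 and 4, as were the other simple epithelium genes described below (5.42, 5.63, 5.47 and 5.65). Not every epithelial list followed this order. The keratin anchors at desmosomes averaged 6.26, 6.06, 6.17 and 6.19, and the other keratins 4.01, 3.94, 4.01 and 3.98. Lists of other cells were split. Striated muscle genes (4.46, 3.84, 4.96 and 3.82) and intermediate filaments of other cells (5.17, 4.70, 5.40 and 4.81) were lower on arrays 2 and 4. Macrophage genes (5.67, 6.02, 5.30 and 5.95) and mesothelium genes (4.16, 4.32, 4.08 and 4.36) were higher on these arrays. Lymphocyte genes (5.24, 4.89, 4.71 and 5.38) followed neither order. The part of cell makeup in the spread was not tested.

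**Figure D4:**
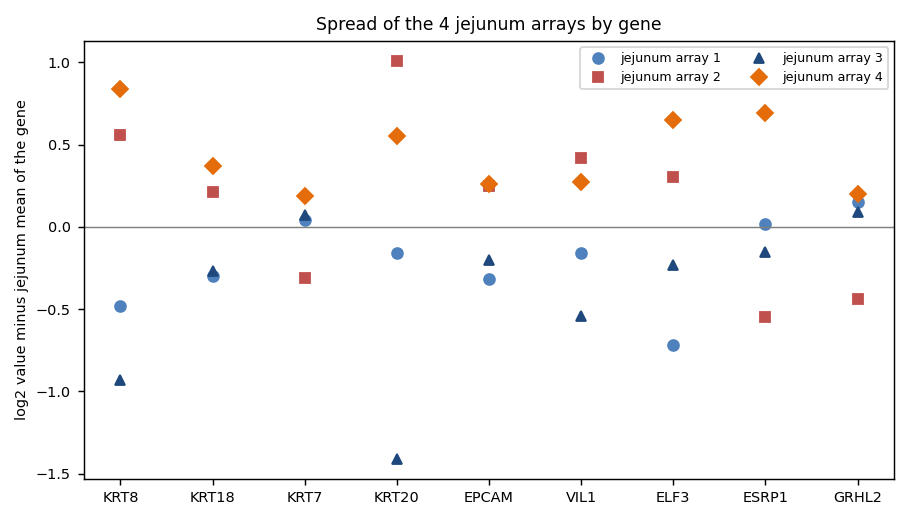
Log2 value of each of the 4 jejunum arrays minus the jejunum mean of the gene (y axis) for probeset 1 of the 9 genes. Arrays 2 and 4 lie above 0 for KRT8, KRT18, KRT20, EPCAM, VIL1 and ELF3, with the widest spread for KRT20, reaching down to -1.41.

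Likeness to other genes was measured as Pearson's r over the 10 organ means, among genes called by the F test, and is given as a description. KRT8 and KRT18 correlated with each other at 0.96. TJP3 and CGN, a scaffold and a linker protein of tight junctions, were among the 3 most like genes of both. Their r was 0.98 and 0.96 to KRT8 and 0.95 and 0.94 to KRT18. The remaining gene was ATP8B1 for KRT8 (0.94) and P4HB for KRT18 (0.94). P4HB was high in every organ, with organ means from 9.31 to 12.60. EPCAM was most like ANPEP (0.97), an aminopeptidase of the brush border, followed by SH3YL1 and CGN (both 0.95). KRT20 was most like TM4SF20, NAALADL1 and NTS, the neurotensin gene, at r of 0.9996, 0.9996 and 0.9994, which a gene high in 1 organ readily reaches. VIL1 was most like SI, the sucrase-isomaltase of the brush border (0.9986), TMIGD1 and MYO7B, a myosin of microvilli (both 0.99). ELF3 was most like PLS1, an actin bundler of microvilli (0.99), ARHGEF5 and the claudin gene CLDN4. KRT7 was most like HSD17B2 (0.99), ITGA3 and VEPH1 (both 0.98). ESRP1 was most like EHF (0.96), an epithelial ETS factor, SGMS2 and MTA3. For GRHL2, whose pattern was flat, the names were TLCD5 (0.96), INPP1 and PLCZ1.

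Other genes of the epithelial state were read in the same contrast of epithelial against other organs. Of 32 measured genes of simple epithelium, such as adhesion proteins, proteases and their inhibitors, 23 were higher and 0 lower, with a median difference of 0.499. ERBB3, a growth factor receptor, was higher by 2.96, ESRP2, the relative of ESRP1, by 2.83, SPINT2, a protease inhibitor, by 2.59 and KLF5 by 2.09. The smallest differences were -0.11 for SOX9 and -0.01 for GRHL1, neither called. ESRP2 ran from 6.04 in jejunum to 7.63 in liver among the epithelial organs, and from 3.74 in spleen to 4.25 in skeletal muscle among the others.

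Of 15 other keratins measured, mostly of stratified epithelium and hair, 1 was higher and 0 were lower, with a median of 0.0699, where 12.0% of all genes were higher and 12.8% lower. The 1 called was KRT13, higher by 0.49 (adjusted p = 0.000281), with means of 5.84 in lung and 5.24 in pancreas. KRT23 (0.18), KRT76 (0.13) and KRT17 (0.09) came next, and KRT24 (-0.17) and KRT16 (-0.09) were at the low end, none of them called. The desmosome list, whose proteins anchor keratin at cell contacts, had 7 higher and 1 lower of 14, median 0.207. PERP was higher by 2.52, DSC2 by 1.94, PPL by 1.65 and PKP3 by 0.76. PKP2 was lower, with a difference of -0.38 (adjusted p = 0.000323), with a mean of 8.46 in heart against 4.14 in jejunum. DST, a cytoskeletal linker, differed by -0.55 without passing the threshold (adjusted p = 0.00822). Heart also had PERP at 8.83 and DSC2 at 9.24, against 8.68 and 10.22 in jejunum.

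Partners of villin in the microvillus were higher in 16 of 20 and lower in 0, median 1.05. PDZK1, a scaffold protein of the brush border, was higher by 3.23, with 10.80 in kidney and 8.57 in jejunum. SLC9A3R1, another scaffold, was higher by 2.73, CDHR2, a protocadherin linking microvilli, by 2.49 and ANKS4B by 2.14. CDHR2 was at 10.05 in jejunum and 9.05 in kidney, and at most 5.84 elsewhere. MYO1D (0.07) and BAIAP2L2 (0.10) had the smallest differences and were not called.

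Of 13 intermediate filament genes of other cells, 5 were lower, 0 were higher and 8 were not called, with a median of -0.282, where 12.8% of all genes were lower. DES, the desmin of muscle, was lower in the mean of the epithelial organs, with a difference of -1.57 (adjusted p = 2.5e-08). It was highest in heart, at 11.35, and skeletal muscle, at 11.25. Jejunum followed at 9.25, with spleen at 7.63 and lung at 7.59, all above lymph node at 5.31 and brain at 4.96. NEFL, a neurofilament chain, was lower with -1.53 (adjusted p = 4.42e-18). NEFM and NEFH, the other neurofilament chains, and GFAP, the glial filament, made up the rest of the lower calls (-1.33, -0.99 and -0.26). The neurofilament chains were high in brain alone, with NEFL at 11.67, NEFM at 11.03 and NEFH at 9.42. In every other organ their means were at most 4.75. GFAP was also highest in brain, at 4.98, but its organ means started at 4.14, so this probeset stayed near the level of most probesets in every organ. VIM, the vimentin of mesenchymal cells, differed by -0.18 and was not called (adjusted p = 0.42), nor were NES (-0.17), PRPH (-0.14) and SYNC (-0.10). Of 8 transcription factors that repress epithelial genes, 3 were lower, 0 higher and 5 not called, median -0.0313, beside the same 12.8%. The differences were -2.01 for TCF4, -1.65 for ZEB1 and -1.17 for ZEB2. SNAI2 differed by 0.59 without passing the threshold (adjusted p = 0.066), and TWIST2 (0.03), SNAI1 (-0.01), TWIST1 (-0.02) and PRRX1 (-0.05) were not called. Lung stood apart from the other epithelial organs, with ZEB1 at 8.66, ZEB2 at 8.79 and TCF4 at 9.16. These lay within the range of means of brain, heart, lymph node, skeletal muscle and spleen. The list of 8 averaged 6.58 in lung, the highest of the 10 organs, followed by 6.42 in spleen. ZEB1 was at 5.04 in pancreas.

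**Figure D5:**
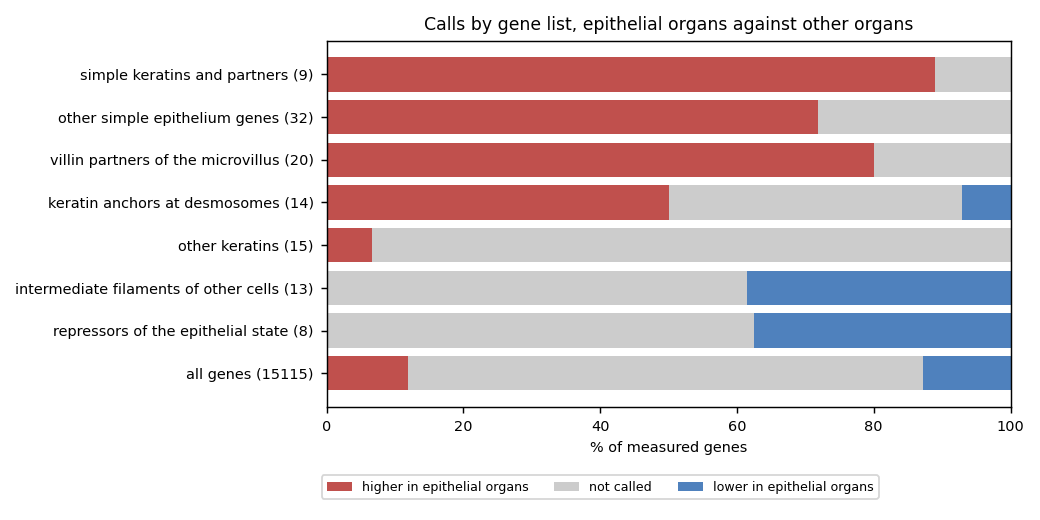
Share of the measured genes of each list (x axis, %; number of genes in brackets) called higher or lower in the 5 epithelial organs than in the other 5, or not called. The simple keratins and partners (8 of 9 higher), villin partners (16 of 20) and other simple epithelium genes (23 of 32) stand beside 12.0% of all genes called higher. Marker lists of single cell types are not plotted, and some had like shares, such as proximal tubule (7 of 8) and hepatocyte (7 of 9).

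A common scale set by 13 housekeeping genes instead of the whole array moved the median epithelial difference of all probesets to -0.41 (-0.00782 as deposited), and the share of higher among all epithelial calls to 8.93% (46.5% as deposited). On that scale 7 of the 9 genes were still higher in epithelial organs, with EPCAM at 5.91, KRT18 at 4.97 and KRT8 at 4.27. ESRP1 was not called, at 0.47 (adjusted p = 0.00692).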

How the data were processed

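The authors extracted total RNA with TRIzol, labelled it as biotinylated cRNA and hybridised it to Affymetrix Canine Version 2.0 arrays. The deposited log2 values were made by the authors in Partek by RMA: probes were adjusted for their sequence and background, the 39 arrays were brought to equal quantiles, and the probes of a probeset were summed by median polish. They left out 1 pancreas array. Values ran from 2.61 to 14.74 and were used as deposited. Groups came from the labels.

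A mean per organ was fitted with limma 3.58.1 in R 4.3.3 over all 42860 probesets. The F test, each organ against the mean of the other 9, the 5 epithelial organs against the other 5, and 45 pairs were adjusted by Benjamini-Hochberg over all probesets within each contrast. Scripts were tested on simulated data. Alternatives were other variance models, scalings and probeset choices, a filter on dim probesets, a replicate block, and arrays or organs left out. Named genes were all 10 members, the 3 most like genes of each, and from each of 6 related lists the 4 largest and 2 smallest (most negative) epithelial differences. ZEB2, NEFM, NEFH, GFAP and PRRX1 fall outside this rule and were named after their values were seen. Members and lists were chosen with earlier results of these data known, and the 8 arrays left out were chosen after seeing the data. Precision is limited by the number of arrays, and low signals are compressed. Gene order was read from the RefSeq gene table, and no genome sequence was used here.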

Additional observations from a re-analysis of the deposited data

Results flagged for a closer look

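Of 153 groups of 4 arrays (17 probesets in 9 organs), 11 held an array that stood far from the other 3, and chance gives about 1 in 20. The widest gap was KRT18 probeset 1 in skeletal muscle, 6.95 on array 1 against 4.11 to 4.32 on the others. KRT18 probeset 2 was not flagged there, at 4.54 on array 1 and 3.73, 3.88 and 3.21 on the others. Skeletal muscle array 1 was also the highest for VIL1, at 3.75, and for GRHL2 probeset 3, at 4.09. KRT7 was low on heart array 1, at 4.08, and high on liver array 3, at 4.74. KRT8 was low on lymph node array 3, at 4.45. Lymph node array 1 was the highest for VIL1 probeset 2, at 3.32, and for GRHL2 probeset 2, at 3.89. KRT20 was low on liver array 2, at 3.37, and ELF3 on spleen array 2, at 3.38. GRHL2 was low on jejunum array 2, at 5.71.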

How the results depend on the processing

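With 1 array left out in turn, 8 genes were higher in epithelial organs in every fit, 6 to 7 in jejunum, 2 to 3 in kidney, 3 to 4 in pancreas, 4 in lung and 3 in liver, and 14 to 15 probesets passed the F test. Setting housekeeping genes equal gave 3 genes higher in skeletal muscle (0 as deposited), where it added 1.25 to the arrays on average. GRHL2 in skeletal muscle became 1.85 (adjusted p = 5.63e-09), and ESRP1 in jejunum 0.77 (adjusted p = 0.0249). Without the 8 arrays, 14 probesets passed the F test and 3 genes were higher in pancreas. Counts of genes higher in an organ did not otherwise move by over 1.5 times, and no called difference turned direction.

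Over probesets called by the F test, the deviations of arrays from their organ mean were correlated. Arrays of equal number in different organs gave -0.222 to 0.422 (median 0.107), with 53.8% over 0.1. Arrays of different number in different organs had a median of -0.0369, with 9.75% over 0.1. By the mean of these correlations, 31 of 39 arrays were closest to their own number, a hint from the data. With the replicate number as a block, 8 genes were higher in epithelial organs, 7 in jejunum, and 12 of 81 neighbouring pairs were called (11 without it). Values near 4 lie at the level of most probesets, so changes in ESRP1 and GRHL2 probesets 2 and 3 are the least certain.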
